A study of Homo sapiens with 20 samples.

Results

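A set of 8 enzymes of glucose production and glucose breakdown was followed through the differentiation of HepaRG cells, a human hepatoma line whose progenitors give rise to hepatocyte-like and biliary-like cells in culture. They are PCK1, PCK2, G6PC1, FBP1, PC, PKLR, HK1 and HK2. They were chosen by name, as all array probes whose RefSeq accession maps to one of these symbols, and G6PC1 was found under its older name G6PC. The rule found 10 of the 42405 probes of the array, for 8 of the 35372 genes or unnamed transcripts that the probes represent. PCK2 and HK2 have 2 probes and each other member has 1.

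Gluconeogenesis makes glucose from lactate, pyruvate, alanine and glycerol, and in the body it is mainly the work of the liver and the kidney. It shares most of its steps with glycolysis, and the direction is set at the few steps that cannot run backwards. There, separate enzymes serve the opposite directions. Pyruvate carboxylase (PC) and phosphoenolpyruvate carboxykinase (cytosolic PCK1, mitochondrial PCK2) bypass pyruvate kinase, fructose-1,6-bisphosphatase (FBP1) bypasses phosphofructokinase, and the catalytic subunit of glucose-6-phosphatase (G6PC1) releases the free glucose that the hexokinases (HK1, HK2) trap. The liver form of pyruvate kinase comes from PKLR and the form of most other tissues from PKM.

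The one-color arrays, made from total RNA with a Cy3 label, number 20, with 4 for each of 5 conditions. The paper's methods describe the 4 as independent biological replicates. All cells were kept in serum-containing medium with insulin and hydrocortisone, a glucocorticoid. They were collected at day 4 (D4, the progenitor stage) and day 15 (D15), and at day 30 after 2 further weeks without (D30 − DMSO) or with 2% dimethyl sulfoxide (D30 + DMSO). The remaining arrays are from cells that had reached day 30 with DMSO and were then kept for 4 days without it (D34 ± DMSO). All the cells come from 1 tumour-derived line, and the culture is a mixture. The values below are processed signals scaled so that the 75th percentile of each array is at 571 units, and a gene is called where, in a limma fit of all 20 arrays, it changed more than 2-fold and its p adjusted by Benjamini-Hochberg was below 0.005. Signals of different probes are not on a common scale, so levels are compared only within a probe.

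Between 61.1% and 74.2% of the spots of an array were well above background, and replicates correlated at 0.955 to 0.992 across genes. The label of the cells was checked against marker genes. All 8 hepatocyte markers on the list rose from D4 to D15, and none was called in any later comparison. The 6 proliferation markers all fell from D4 to D15 and all rose again at D34 ± DMSO against D30 + DMSO. Of the biliary markers, EPCAM and CFTR were not well above background often enough to be tested. In a bulk sample of this kind, fewer cells of a type and less RNA per cell cannot be told apart.

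Promoter sequences are shown for 3 of the 4 members called with DMSO, G6PC1 and PCK2 upward and HK2 downward. PCK1, the other member called, has no entry in the promoter table. The sequences are from RefSeq on GRCh38.p14 and run from 250 bases before to 50 bases after an annotated start. Of the 8 members, 7 have an entry in that table, and for HK2 the window nearer the start of the gene is given. Capitals mark matches to 8 short motifs, searched on both strands. The TATA box was spelled TATAAA. The CCAAT box was searched by the letters of its name. The GC box was spelled GGGCGG. The E-box was spelled CACGTG. The half-site of the cAMP response element was spelled TGACG. The half-site of HNF1, a hepatic transcription factor, was spelled GTTAAT. The core bound by FOXO and FOXA factors was spelled TGTTTAC. The element shared by C/EBP and ATF factors was spelled TGATGNAAN. The windows are G6PC1 at chr17:42900549-42900848 (+), PCK2 at chr14:24094061-24094360 (+) and HK2 at chr2:74833877-74834176 (+).
G6PC1: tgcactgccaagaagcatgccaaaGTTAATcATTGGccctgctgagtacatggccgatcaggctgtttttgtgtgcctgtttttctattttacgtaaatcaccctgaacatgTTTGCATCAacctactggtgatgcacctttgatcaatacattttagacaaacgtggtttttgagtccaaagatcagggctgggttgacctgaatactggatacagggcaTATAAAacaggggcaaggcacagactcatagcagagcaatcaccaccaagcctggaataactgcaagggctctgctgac
PCK2: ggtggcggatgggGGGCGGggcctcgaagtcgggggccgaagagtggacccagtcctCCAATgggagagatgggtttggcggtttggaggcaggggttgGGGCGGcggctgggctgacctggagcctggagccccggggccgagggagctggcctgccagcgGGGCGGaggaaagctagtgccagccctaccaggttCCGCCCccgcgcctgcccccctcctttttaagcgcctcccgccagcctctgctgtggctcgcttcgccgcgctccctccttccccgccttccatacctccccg
HK2: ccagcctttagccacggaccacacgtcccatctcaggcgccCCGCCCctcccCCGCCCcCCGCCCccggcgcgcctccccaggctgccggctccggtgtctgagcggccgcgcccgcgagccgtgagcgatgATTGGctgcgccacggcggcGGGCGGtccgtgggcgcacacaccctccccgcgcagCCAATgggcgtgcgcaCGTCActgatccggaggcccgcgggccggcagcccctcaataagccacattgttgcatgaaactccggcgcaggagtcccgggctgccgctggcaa
The G6PC1 window holds a TATA box starting 29 bases before the start, and 11.5% of the 35116 promoter windows of the table hold one. It also holds an HNF1 half-site (6.88% of all windows), a CCAAT box (34.6%) and a C/EBP-ATF element (3.61%), and only 3 CpG dinucleotides at a G and C content of 45.7%. The HNF1 match and the CCAAT match stand next to each other, with 1 base between them. The PCK2 window had no TATA box match. It holds 4 GC boxes (45% of all windows hold at least 1), a CCAAT box, and 23 CpG dinucleotides at a G and C content of 71.7%. The HK2 window is of the same kind as that of PCK2, with 4 GC boxes, 2 CCAAT boxes and a cAMP response element half-site (24.6% of all windows), and with 38 CpG dinucleotides at 74.3% G and C. The E-box (7.26% of all windows) and the FOXO and FOXA core (3.42%) had no match in these 3 windows. HK2 has another annotated window, not shown, and that window holds E-box matches at −194 and −149 from its start. The windows shown for PCK2 and HK2 thus resemble each other in base composition. Whether promoter composition goes with the change under DMSO was not tested.

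Of the 8 members, 6 passed the filter, which asks for at least 1 condition whose arrays all show the probe well above background. The tests below are on these 6. HK1 and FBP1 are described by their signals only. PCK1 passed only through D30 + DMSO and D34 ± DMSO, the conditions where it was highest. Ranges that do not overlap are given as a description. Of all genes tested, 12.8% lay higher and 11.4% lower at D15 than at D4 without overlap. From D15 to D30 − DMSO these shares were 1.23% and 1.08%, and with DMSO 12.6% and 12.5%. On removal they were 11.3% and 12.7%, and for D34 ± DMSO against D30 − DMSO 5.31% and 6.7%.

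**Figure D1:**
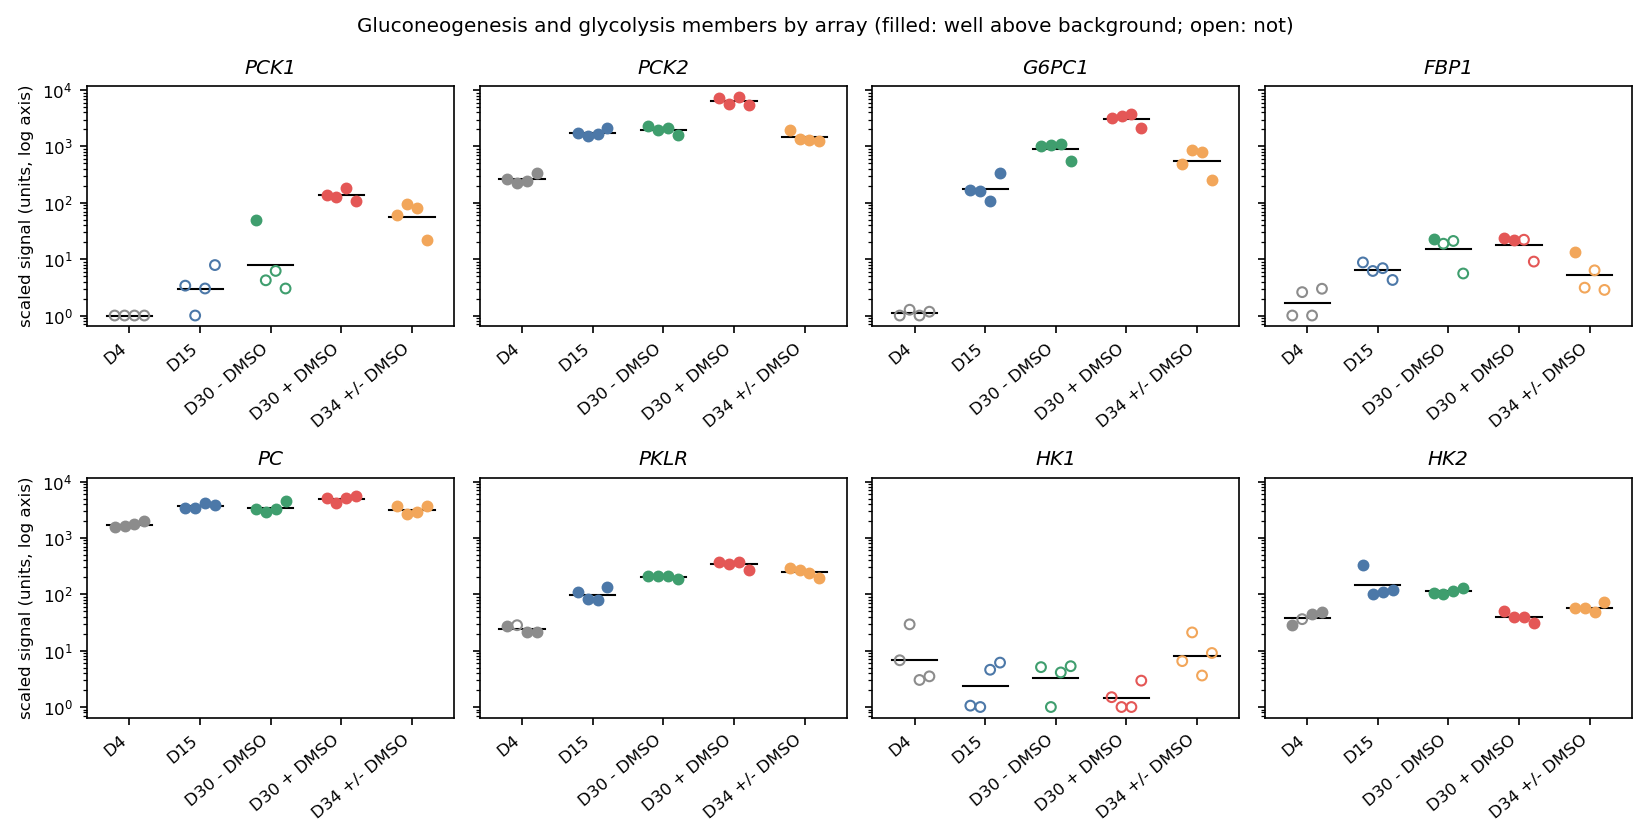
Scaled signal of each member (vertical log axis, in units with the 75th percentile of each array at 571; signals under 1 are drawn at 1) in the 5 conditions, with replicates 1 to 4 from left to right. Each point is 1 array, filled where the spot was well above background, and the line is the mean of the log2 values. PCK1, PCK2 and G6PC1 are highest in D30 + DMSO, HK2 is highest at D15 and D30 − DMSO, and HK1 has no filled point. For PCK2 and HK2 the probe with the higher mean signal is shown.

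Phosphoenolpyruvate carboxykinase turns oxaloacetate into phosphoenolpyruvate, and its mitochondrial form PCK2 was measured on every array. PCK2 was at 264, 221, 240 and 336 units in the D4 replicates 1 to 4, and at 1695, 1502, 1691 and 2121 units at D15. At day 30 it was at 2322, 1968, 2122 and 1599 units without DMSO and at 7274, 5555, 7548 and 5463 units with DMSO. After removal of DMSO, it was at 1985, 1351, 1298 and 1268 units. The D4 arrays are lowest and the D30 + DMSO arrays highest, neither overlapping any other condition, while D15, D30 − DMSO and D34 ± DMSO form a middle level in which neighbouring conditions overlap. From D4 to D15, PCK2 rose 6.64-fold (log2 fold change 2.73, SE 0.18, limma adjusted p = 3.65e-09). With DMSO it was 3.22-fold higher than without (log2 1.69, SE 0.18, limma adjusted p = 2.92e-06), which is place 128 among the 22069 genes ordered from the largest rise. On removal it fell 4.41-fold (log2 −2.14, SE 0.18, limma adjusted p = 1.35e-07). The D34 ± DMSO level was not called different from that of D30 − DMSO, with a log2 difference of −0.45 (95% interval −0.84 to −0.07, limma adjusted p = 0.209).

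The other PCK2 probe, designed on the transcript NM_001018073, gave the same 3 calls in a fit of all probes. Its log2 fold change was 1.70 between D4 and D15 and 1.65 with DMSO. On removal it fell by 1.73. Within the slides that hold both conditions, the DMSO difference of the PCK2 probe first described was 1.45 on the log2 scale on slide 3 and 2.01 on slide 4, and with slide as a block it was 1.65. On removal, its change was −1.99 and −2.34 on those slides. Each of them holds 2 D30 + DMSO arrays but only 1 D30 − DMSO array, and the other D30 − DMSO arrays lie on slides 1 and 2.

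The cytosolic form PCK1 gave a measurable signal only late. None of the D4 and D15 arrays had it well above background, so no fold can be given for that interval. At D30 − DMSO, replicate 1 was at 48.8 units, and replicates 2 to 4 were at 4.22, 6.18 and 3.01 units and not well above background. In D30 + DMSO all 4 arrays had signal, at 139, 128, 186 and 106 units. In D34 ± DMSO the signals were 60.2, 95.4, 82.0 and 21.9 units. The D30 + DMSO arrays all lie above the arrays of every other condition, and the D34 ± DMSO arrays overlap D30 − DMSO through its replicate 1. The fitted difference with DMSO was 4.12 on the log2 scale (SE 0.70, limma adjusted p = 0.000321), measured against a condition in which 1 of 4 arrays was well above background. Its size depends on how signals near background were treated. It was 3.20 with every signal set to at least 10 units, and 1.38 under normexp background correction (limma adjusted p = 4.29e-05). Without D30 − DMSO replicate 1, no array of that condition was well above background, and PCK1 was at least 8.41-fold higher with DMSO. That array was left out because of its value, so this bound is a description and was not tested. PCK1 was not called in a fit of only these 2 conditions (limma adjusted p = 0.00746) or by the methods' t-test (adjusted p = 0.0301).

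The removal of DMSO was not called for PCK1, although its ranges at D34 ± DMSO and D30 + DMSO do not overlap. Of all genes tested, 12.7% lay lower at D34 ± DMSO in this way. The log2 change was −1.27 (95% interval −2.75 to 0.20, limma adjusted p = 0.233). Against D30 − DMSO, PCK1 in D34 ± DMSO was 2.85 higher on the log2 scale (SE 0.70, limma adjusted p = 0.0213), which missed the threshold. Under normexp this difference was 0.71. Without D30 − DMSO replicate 1, the only array of that condition with signal above background, PCK1 was at least 3.48-fold higher in D34 ± DMSO. That array was left out because of its value, so this bound is a description and no call is drawn from it. Within slide 3, which holds that replicate, the log2 difference was 0.53, and it was 3.95 on slide 1 and 2.86 on slide 4. Each of these slides holds 1 D30 − DMSO array.

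The difference between PCK1 and PCK2 in their response was tested on the log2 ratio of both within each array. With DMSO the change of PCK1 less that of PCK2 was 2.43 on the log2 scale (two-sided exact permutation test, p = 0.0857, adjusted p = 0.137 over 8 tests), and it turned to −0.23 under normexp. On removal the ratio changed by 0.87 (exact p = 0.171, adjusted p = 0.196). With 4 arrays against 4, the smallest p that this test can give is 0.0286. A difference between both enzymes in the response to DMSO was therefore not shown.

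G6PC1, which releases glucose in the last step of gluconeogenesis, showed the widest range of the members. None of the D4 arrays had it well above background. At D15 it was at 165, 161, 106 and 337 units. At D30 − DMSO the signals were 1032, 1067, 1090 and 561 units, and in D30 + DMSO 3233, 3454, 3705 and 2117 units. In D34 ± DMSO they were 491, 872, 794 and 252 units. Replicate 4 was the lowest array in each of the last 3 conditions and the highest at D15. D30 + DMSO lies above all other conditions without overlap, and D34 ± DMSO overlaps both D30 − DMSO and D15.

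From D4 to D15, G6PC1 rose at least 13.3-fold, where the D4 level is taken as the lowest signal called well above background on each array. The limma adjusted p of 1.61e-10 is for the fitted difference with signals set to at least 1 unit, and the bound itself was not tested. Under normexp the fitted rise was 2.25 on the log2 scale. From D15 to D30 − DMSO it was 5.16-fold higher (log2 2.37, SE 0.37), and although the ranges do not overlap, limma's adjusted p of 0.0168 missed the threshold. Without D15 replicate 4 the rise was 2.68 and was called (limma adjusted p = 0.00341). With DMSO, G6PC1 was 3.38-fold higher than without (log2 1.76, SE 0.37, limma adjusted p = 0.00200). This call was lost under quantile normalization (log2 1.68, adjusted p = 0.00980), and without D30 − DMSO replicate 4 or without D30 + DMSO replicate 1, 2 or 3, where the adjusted p was between 0.00637 and 0.00941 and the log2 difference between 1.53 and 1.73. It was also lost by the methods' t-test (adjusted p = 0.0116). Within slides 3 and 4, the difference was 1.70 and 2.32, each against 1 D30 − DMSO array. On slide 4 that array is replicate 4, the lowest of its condition. On removal, G6PC1 fell 5.65-fold (log2 −2.50, SE 0.37, limma adjusted p = 5.83e-05), which is place 28 among all genes ordered from the largest fall. By the methods' t-test this fall was not called (adjusted p = 0.0164). Its level after removal differed from D30 − DMSO by −0.74 on the log2 scale (95% interval −1.51 to 0.03, limma adjusted p = 0.352).

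PC, the mitochondrial enzyme that makes oxaloacetate from pyruvate, changed least among the gluconeogenic members that were tested. It was at 1535, 1600, 1794 and 1985 units at D4 and at 3343, 3400, 4203 and 3880 units at D15. At D30 − DMSO it was at 3252, 2891, 3259 and 4442 units, and in D30 + DMSO at 5079, 4090, 5207 and 5570 units. In D34 ± DMSO it was at 3611, 2695, 2853 and 3700 units. D4 lies below all other conditions, and among the rest only D30 + DMSO and D34 ± DMSO do not overlap. PC rose 2.15-fold from D4 to D15 (log2 1.10, SE 0.16, limma adjusted p = 2.99e-05), and under normexp background correction the rise was 0.99 and under the 2-fold limit. With DMSO it was 1.45-fold higher (limma adjusted p = 0.0216) and on removal 1.56-fold lower (limma adjusted p = 0.00594), neither of which was called.

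FBP1, which takes the phosphate from fructose-1,6-bisphosphate, was close to background throughout. It was well above background on 4 of the 20 arrays. These are D30 − DMSO replicate 1 at 22.6 units, D30 + DMSO replicates 1 and 2 at 24.0 and 22.2 units, and D34 ± DMSO replicate 1 at 13.5 units. At D4 it was at 2.98 units or below. The signals of D30 − DMSO (5.56 to 22.6 units) and D30 + DMSO (9.05 to 24.0 units) overlap.

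PKLR, the liver and red cell pyruvate kinase, belongs to the glycolytic direction and its mean signal was nevertheless highest in D30 + DMSO. It was at 27.5, 28.3, 21.1 and 21.1 units at D4, where replicate 2 was not well above background, and at 110, 83.8, 77.8 and 132 units at D15. At D30 − DMSO it was at 215, 208, 213 and 189 units. With DMSO it was at 369, 345, 374 and 274 units, and after removal at 289, 271, 243 and 194 units. The ranges of D4, D15, D30 − DMSO and D30 + DMSO follow each other without overlap, and D34 ± DMSO overlaps both day 30 conditions. From D4 to D15, PKLR rose 4.07-fold (log2 2.02, SE 0.18, limma adjusted p = 8.12e-08), and under normexp the rise was 1.01 and still called. The later differences were not called. They were 2.09-fold from D15 to D30 − DMSO (limma adjusted p = 0.0276) and 1.64-fold with DMSO (limma adjusted p = 0.00723). The change on removal was −0.46 on the log2 scale (95% interval −0.83 to −0.09, limma adjusted p = 0.0749).

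PKM, the pyruvate kinase of most tissues, was measured beside it. Its lowest, median and highest signals were 12957, 16592 and 28255 units at D4, and 6510, 7365 and 18285 units at D30 − DMSO. In D30 + DMSO they were 3595, 4964 and 8491 units. None of its changes was called, with a log2 difference of −0.78 with DMSO (SE 0.38, limma adjusted p = 0.187). Within each array the log2 ratio of PKLR to PKM differed by 2.68 from D4 to D15 and by 1.50 with DMSO, each with the smallest p that the exact permutation test can give (two-sided, p = 0.0286), and neither passed after adjustment over the 8 tests (adjusted p = 0.114). It differed by 1.40 from D15 to D30 − DMSO (exact p = 0.0571) and by −1.18 on removal (exact p = 0.114).

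HK2, a hexokinase of muscle and of many dividing and tumour cells, was called lower with DMSO, where PCK1, PCK2 and G6PC1 were called higher. It was at 28.3, 36.2, 44.0 and 49.1 units at D4, replicate 2 not being well above background, and at 330, 100, 108 and 118 units at D15. At D30 − DMSO it was at 107, 102, 114 and 131 units, and in D30 + DMSO at 50.0, 39.7, 40.1 and 31.3 units. In D34 ± DMSO it was at 57.3, 56.0, 49.0 and 72.0 units. D15 and D30 − DMSO are high and overlap, and D4 and D30 + DMSO are low and overlap. The D34 ± DMSO arrays lie below all D30 − DMSO arrays and reach down into D30 + DMSO. HK2 rose 3.72-fold from D4 to D15 (log2 1.89, SE 0.29, limma adjusted p = 6.75e-05), and the rise was 1.49 without D15 replicate 1 and still called. It was 1.11 under normexp, and it was not called in a fit of only these 2 conditions (limma adjusted p = 0.00671) or by the methods' t-test (adjusted p = 0.0340). With DMSO it was 2.84-fold lower (log2 −1.51, SE 0.29, limma adjusted p = 0.00103). Within slides 3 and 4 that difference was −1.26 and −1.89, each against 1 D30 − DMSO array. Under normexp background correction the difference was −0.63 and not called. After removal it changed by 0.55 on the log2 scale (95% interval −0.06 to 1.16, limma adjusted p = 0.214), so a return towards the level without DMSO was not shown.

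The other HK2 probe was well above background on 1 array only, D15 replicate 1, at 44.5 units. This is the same array on which the first HK2 probe was at 330 units, so both probes set it apart. HK1, the hexokinase of most tissues, was read from 1 probe only, designed on the transcript NM_033500. None of the 20 arrays showed signal well above background for it, and its highest signal was 29.3 units in D4 replicate 2. Other HK1 transcripts were not analysed here, so whether the gene was expressed through them cannot be told from this probe. A ratio of HK2 to HK1 was not computed, since this HK1 probe gave no signal above background.

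**Figure D2:**
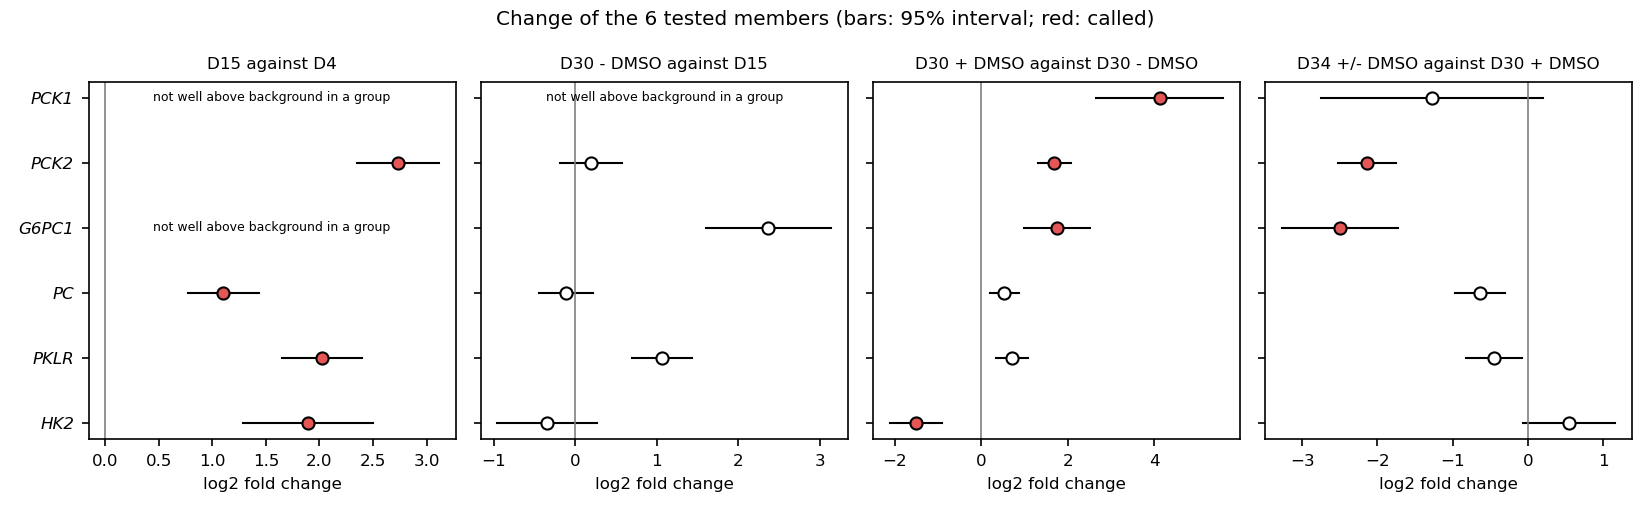
Log2 fold change (horizontal axis, scale differs by panel) of the 6 tested members in 4 comparisons, with 95% intervals from the limma fit, red where called. No point is drawn where a condition had no array well above background. PCK1, PCK2 and G6PC1 lie to the right of 0 and HK2 to the left in D30 + DMSO against D30 − DMSO.

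Counted over the 6 tested members, 5 were called upward from D4 to D15, against 5.82% of the 22069 genes tested that were called upward and 3.71% downward. Of these 5, G6PC1, PKLR and HK2 did not have every D4 array well above background and passed the filter through other conditions, so the count is a description. Over genes well above background on every array of both conditions, a set chosen after the data were seen, PCK2 and PC remain, and both were called upward, against 4.46% of 18790 genes. Between D15 and D30 − DMSO none of the 6 was called by limma, nor was almost any gene (1 of 22069, 0.00453%), although 656 genes had an unadjusted p below 0.05. With DMSO, 3 members were called higher and 1 lower, against 1.74% and 4.16% of all genes. One of the 3 is PCK1, which passed the filter through the conditions where it was high. Without it, 2 of 5 members were called higher and 1 lower, against 1.82% and 3.04% of the 19296 genes well above background in both conditions, and the median log2 difference was 0.71 against 0.06. On removal 2 were called lower and none higher by limma, against 2.12% and 4.93% of all genes, with a median of −0.96 against −0.07. No member was called by limma between D34 ± DMSO and D30 − DMSO, where 1.32% of all genes were called higher, 0.213% lower, and 3389 had an unadjusted p below 0.05. Over the 5 conditions, PCK1, PCK2, G6PC1 and PKLR passed the limma F-test (over 3-fold between the highest and lowest mean, with p adjusted by Bonferroni under 0.001), as did 5.41% of all genes. For PCK1 and G6PC1 the lowest mean is that of D4, where no array was well above background, so this count is a description. The other PCK2 probe missed the threshold in a fit of all probes (limma F-test, Bonferroni-adjusted p = 0.00114). The comparisons with and after DMSO share the D30 + DMSO arrays, so a rise in one and a fall in the next are not separate evidence.

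The marker lists had the following values beside these results. Signals of different probes are not on a common scale, so a sum mostly follows its brightest probes. These are ALB, TTR and SERPINA1 for the hepatocyte list, KRT19 for the biliary list and ACTA2 for the mesenchymal list. The summed signal of the 8 hepatocyte markers ranged from 86614 to 179017 units at D4 and from 751957 to 1093820 units at D15. It was between 958665 and 1017260 units at D30 − DMSO, between 1095130 and 1798120 units in D30 + DMSO, and between 925021 and 1170120 units in D34 ± DMSO. The sum was thus higher on every D30 + DMSO array than on any D30 − DMSO array, and the median log2 fold change of the 8 markers was 0.50. Taken singly, TTR, TF, SERPINA1 and APOA1 did not overlap between these conditions, while ALB, FGB, APOB and HNF4A did. None of the 8 was called with DMSO. The sum of the 6 proliferation markers was between 2138 and 3204 units in D30 + DMSO and between 9429 and 13538 units in D34 ± DMSO, where PCK2 and G6PC1 were lower. Of the 4 biliary markers tested, SOX9 rose by 1.31 with DMSO and SPP1 fell by 1.78. The summed signal of the 4 biliary markers was between 76843 and 80821 units at D30 − DMSO and between 58914 and 85758 units in D30 + DMSO. Of the 4 mesenchymal markers, 3 were tested, VIM, COL1A1 and ACTA2, and none was called with DMSO or on removal by limma. Their summed signal was between 2503 and 5093 units at D4, between 1562 and 2229 units at D15 and between 1386 and 2479 units at D30 − DMSO. It was between 878 and 1577 units in D30 + DMSO and between 1857 and 3229 units in D34 ± DMSO, so these 2 ranges do not overlap. ACTA2 alone was between 816 and 1510 units in D30 + DMSO and between 1565 and 3058 units in D34 ± DMSO. The median log2 fold change of the 3 mesenchymal markers was −1.29 from D4 to D15, −0.57 with DMSO and 1.16 on removal. The part of these markers in the members' changes was not tested.

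The other genes of the pathway were taken from lists of the shared steps, the other isoenzymes, transport and pyruvate use, and regulators. Among the 12 genes of the shared steps and lactate, 10 were tested. ALDOA was not matched by accession and ENO2 did not pass the filter. These genes serve both directions. From D4 to D15, 2 of the 10 were called, both higher, one of them LDHB, against 5.82% of all genes. With DMSO, 1 of the 10 was called lower, which is LDHB, against 4.16% of all genes. LDHB, the lactate dehydrogenase subunit of heart muscle, was between 479 and 751 units at D30 − DMSO and between 166 and 254 units in D30 + DMSO. It fell by 1.42 on the log2 scale (SE 0.27, limma adjusted p = 0.000771). After removal of DMSO, LDHB ranged from 186 to 540 units.

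Among the 14 other isoenzymes of the irreversible steps, 11 were tested, and HK3, FBP2 and G6PC2 did not pass the filter. None was called with DMSO, against 1.74% of all genes called higher and 4.16% lower. On removal PFKP, the platelet form of phosphofructokinase, was the single call and higher, against 4.93% of all genes called higher. It was between 258 and 462 units in D30 + DMSO and between 944 and 1143 units in D34 ± DMSO (log2 fold change 1.48, SE 0.18, limma adjusted p = 1.02e-05), above its range of 454 to 625 units at D30 − DMSO. Between D4 and D15 its log2 fold change had been −1.32, and PFKFB1, the liver form of the enzyme that makes and removes fructose 2,6-bisphosphate, had risen at least 3.05-fold.

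Of the 19 genes for transport, precursors and pyruvate use, 18 were tested. With DMSO 4 were called higher, against 1.74% of all genes, and on removal 2 were called lower, against 2.12%. Both of the latter were among the former. SLC37A4, the carrier that brings glucose 6-phosphate to G6PC1 in the endoplasmic reticulum, was between 3557 and 4623 units at D30 − DMSO, between 7451 and 10302 units in D30 + DMSO and between 3194 and 4060 units in D34 ± DMSO. It rose by 1.05 with DMSO (SE 0.15, limma adjusted p = 6.77e-05) and fell by 1.22 on removal (limma adjusted p = 9.95e-06), as did G6PC1 in both steps. GPT, the alanine aminotransferase that makes pyruvate from alanine, went from between 937 and 1137 units to between 1987 and 2914 units with DMSO, and to between 578 and 756 units after removal. Its log2 fold changes were 1.18 (limma adjusted p = 0.000245) and −1.86 (limma adjusted p = 1.39e-06). GPT2, its mitochondrial form, was higher by 1.15 with DMSO (limma adjusted p = 0.00340), as was PDK4, a kinase that shuts off pyruvate dehydrogenase, by 1.10 (limma adjusted p = 0.00478). The hepatic glucose carrier SLC2A2 was called only between D4 and D15, with a log2 fold change of 3.28.

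All 19 regulators were tested. From D4 to D15, 6 were called higher and 2 lower, against 5.82% and 3.71% of all genes. Among them were GCKR, HNF4A and MLXIPL upward and HIF1A and MYC downward. With DMSO only HIF1A was called, as lower, against 4.16% of all genes called lower. HIF1A, a transcription factor of the response to low oxygen, was between 2277 and 3111 units at D30 − DMSO and between 1098 and 1385 units in D30 + DMSO (log2 fold change −1.16, SE 0.18, limma adjusted p = 0.000169). TAT and IGFBP1 are targets of glucocorticoids and of insulin and FOXO1. TAT differed by 1.09 with DMSO (limma adjusted p = 0.0705) and by −1.63 on removal (limma adjusted p = 0.00623), and IGFBP1 by 0.80 and −0.11, none of them called. PPARGC1A, a coactivator of gluconeogenic genes in the fasted liver, was 0.98 lower on the log2 scale with DMSO, just under the 2-fold limit (limma adjusted p = 0.000316). In D34 ± DMSO it was called lower than at D30 − DMSO, by 1.17. A link between PPARGC1A and the members' changes was not tested.

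**Figure D3:**
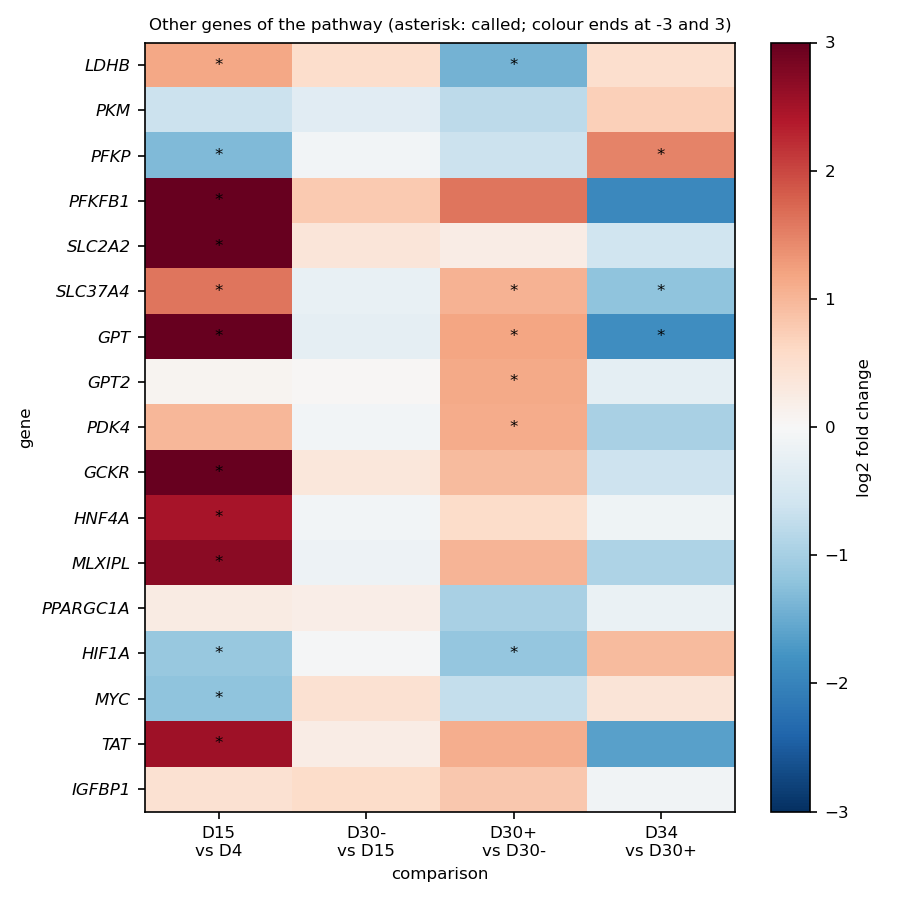
Log2 fold change of the genes of the 4 pathway lists that are named in the text (colour, ending at −3 and 3; rows are genes and columns are comparisons; D30- and D30+ stand for D30 − DMSO and D30 + DMSO), with an asterisk where called. In D30 + DMSO against D30 − DMSO, SLC37A4, GPT, GPT2 and PDK4 carry an asterisk as higher and LDHB and HIF1A as lower. For PFKFB1 and HNF4A the first column is measured against D4 arrays not well above background.

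The genes whose pattern was most like that of each member were found by Pearson's correlation of log2 values over the 20 arrays, which fall into 5 conditions and share their scaling, so r is a description. For G6PC1 they were SLC27A5 (r = 0.987), a bile acid and fatty acid ligase, GPD1 (0.986), which links glycerol to the triose phosphates, and ESPN (0.985). For PKLR they included the D-amino acid oxidase DAO (0.984) and again ESPN (0.984). For PCK2 the highest was an intergenic transcript with no symbol (0.993), followed by the glutamine carrier SLC38A3 (0.988) and ALDH2 (0.985). PC was most like ALDH1L1 (0.969), TMT1B (0.964) and TMEM120A (0.961). PCK1 was most like CYP2J2 (0.940), NHLRC3 (0.933) and SRD5A2 (0.925), and among the genes most like HK2 were the muscle phosphofructokinase PFKM (0.897) and TRMT9B (0.890).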

How the data were processed

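The authors deposited, for each of 20 one-color Agilent arrays, Feature Extraction output. The version is 10.7.1.1 in the file headers and 10.7.3.1 in the submitters' processing notes. The deposited processed signal is an intensity, with background subtracted array by array and no scaling across arrays. The deposited flags of 0 or 1, of unit other, mark outlier spots and spots well above background. A log2 matrix deposited by the authors served as an alternative. For 21541 probes it matched the log2 processed signals up to a baseline per probe, and what that baseline was stayed unknown (column medians −0.204 to 0.174).

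Outlier spots were left out, spots of a probe were averaged, and signals were scaled to a common 75th percentile (407 to 766 units before scaling), set to at least 1 and taken to log2. No value of a member was missing, and none was saturated. Probes well above background on all measured arrays of at least 1 condition were kept (26351 of 42405), and each gene was read from its brightest probe on average (22069 genes). Accessions gave a current symbol to 24826 probes through the RefSeq table of GRCh38.p14, and 17579 have none. One linear model over 20 arrays with 5 condition means was fitted with limma 3.58.1 in R 4.3.3, with the package data.table (version 1.17.8). Thresholds were set as the study's methods give them. On simulated data with 200 of 22069 genes changed 4-fold, 81% were recovered in the comparison with and without DMSO, and 1 unchanged gene was called. The number of arrays limits the precision.

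The arrays lie on 4 slides scanned in 2 sessions, and replicate numbers run across conditions. Arrays of other conditions on the same slide deviated together (median r 0.392, lowest 0.117), against a median of −0.181 for other slides. Those of the same replicate number did not always do so (median 0.277, lowest −0.329), against a median of −0.171 for other numbers. The numbers were not taken as pairs, and the main fit includes neither slide nor number. The alternatives were quantile normalization, normexp with an offset of 50, the matrix, no filter and a stricter one, every probe, slide, session or replicate number as a block, only the arrays compared, the methods' own tests, other thresholds, a floor of 10 and each array left out. The members and lists were chosen with earlier results of these data known. Genes named beside the members are PKM, ALDOA, TAT and IGFBP1, listed genes called with or after DMSO (at most 5 per list and direction), and for each member the 3 genes of most similar pattern. Some genes that this rule names are not reported here. LDHB and other listed genes with values for D4 to D15, and PPARGC1A, were named after their values were seen.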

Additional observations from a re-analysis of the deposited data

Results flagged for a closer look

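In 4 cases a value of a member stood far from the other arrays of their condition, out of 32 sets of 4 arrays looked at. The measure is the gap of the outermost array to its neighbour as a share of the range of log2 values, read against Dixon's 95% critical value for 4 samples, and chance alone marks about 1 in 20 sets. HK2 in D15 replicate 1 was the highest, at 330 units against 100 to 118 units, with a share of 0.862. G6PC1 in D30 − DMSO replicate 4 was the lowest, at 561 units against 1032 to 1090 units, with a share of 0.918. On the same array the PCK2 probe of NM_001018073 was the lowest, at 170 units against 329 to 369 units, with a share of 0.851. The other PCK2 probe in D34 ± DMSO replicate 1 was the highest, at 1985 units against 1268 to 1351 units, with a share of 0.858. The causes were not tested.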

How the results depend on the processing

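Over the settings and left-out arrays, the direction and call of the members were the same in 589 of 610 values. The number of members called was the same, or within 1.5 times, in 131 of 142 values. With only probes well above background on all arrays, 2 members (PCK2 and PC) were left to test, and the number called was 2 from D4 to D15, 1 with DMSO, 1 on removal and 1 over the 5 conditions, against 7.99%, 4.77% and 5.96% of all genes in the first 3. By the methods' t-test, 2 were called with DMSO (PCK2 and HK2, against 2.63% of all genes) and 1 on removal (PCK2, against 2.22%). Over genes well above background on every array of both conditions, an alternative chosen after the data were seen, 2 were called from D4 to D15. At an adjusted p below 0.05, 2 were called from D15 to D30 − DMSO (G6PC1 and PKLR, against 0.0453% of all genes) and 1 between D34 ± DMSO and D30 − DMSO (PCK1, against 2.17%). Leaving out 1 array gave 5 called from D4 to D15 each time, 3 to 4 with DMSO, 2 on removal, 0 to 1 from D15 to D30 − DMSO and 0 to 1 between D34 ± DMSO and D30 − DMSO. The replicate number as a block left these counts at 5 from D4 to D15, 0, 4 with DMSO, 2 on removal and 0, and moved the count over the 5 conditions from 4 to 3. Of the 20 arrays, 16 correlated best with an array of their own number, and 16 with one of their own slide.

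Directions turned only in values that were not called. Leaving out 1 array, the HK2 difference from D15 to D30 − DMSO ranged from −0.52 to 0.055 on the log2 scale, the latter without D15 replicate 1, in place of −0.35. The PC difference between D34 ± DMSO and D30 − DMSO ranged from −0.18 to 0.025, the latter without D30 − DMSO replicate 4, in place of −0.10. With a floor of 10 the fitted PCK1 change from D4 to D15 was 0, since all its signals there lie below the floor. Under normexp, the change of PCK1 less that of PCK2 was −0.23 with DMSO and −0.11 from D15 to D30 − DMSO, in place of 2.43 and 1.20. The cause was not tested. The ratio of HK2 to HK1 could not be computed. Signal over background limits PCK1 before DMSO, FBP1, the HK1 probe and HK2. Other HK1 transcripts were not analysed.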
